A study of Bos taurus and Felis catus with 14 samples.

Results

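The mir-181 family was represented by 12 predicted precursors, 6 in the cow and 6 in the cat, among the 1305 precursors of the deposited sets. These sets held 810 bovine and 495 feline loci. The members were every precursor whose name holds mir-181, with copy letters and numbers included and names of antisense loci left out. Under this rule both species gave the same 6 names, mir-181a-1, mir-181a-2, mir-181b-1, mir-181b-2, mir-181c and mir-181d. The choice used names alone and no measured value. Antisense names and the names given to newly predicted homologs held 0 loci of this family.

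The bovine set was called from small RNA libraries of 10 tissues, 1 library each, taken from 3 untreated Angus steers. The first steer gave the submandibular lymph node, retina, iris, optic nerve, dental pulp, penis, oral papillae and bone marrow, the second the brain stem and the third the corium. The feline set was called from 2 libraries of skin and 2 of muscle, all normal tissue of 3 neutered male domestic short hair cats of senior age, 1 of which gave both tissues. The prediction program miRWoods was run on the libraries of a species together, which gave 1 list of genomic positions per species. In these lists a locus carries no read number, no level in a tissue and no replicate. The study tabulated read counts of mature microRNAs elsewhere, which were not used here, so the depth behind each locus is not given. The distances below are single values that are compared without a test, and the steers, cats and tissues cannot be told apart in them.

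A microRNA is cut from a hairpin in a longer transcript, first by Drosha at the base of the hairpin and then by Dicer near its loop. The Dicer cut leaves a duplex with a strand from the 5′ arm (the 5p product) and a strand from the 3′ arm (the 3p product). The strand that is loaded into an Argonaute protein pairs with target messages mainly through its seed. The miR-181 family is best known from lymphocytes, where it favours B cell development and tunes the sensitivity of T cells to antigen through phosphatases that dampen T cell receptor signalling. In mammals it is encoded in clusters that each hold an a and a b copy or the c and d genes, which lets a single transcript supply hairpins with related products.

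The kinship of the products is shown here with human sequences, which the study listed for 8 products of 4 hairpins, since bovine and feline sequences were not analysed here. Products of mir-181a-2 and mir-181b-2 were not used here. The seed, bases 2 to 8 counted from the 5′ end, is in capitals, and the products are set out by arm to show which seeds are shared.
hsa-mir-181a-1-5p: aACATTCAacgctgtcg
hsa-mir-181b-1-5p: aACATTCAttgctgtcggtgg
hsa-mir-181c-5p: aACATTCAacctgtcggtgagttt
hsa-mir-181d-5p: aACATTCAttgttgtcggtgggtt
hsa-mir-181a-1-3p: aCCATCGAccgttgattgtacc
hsa-mir-181b-1-3p: cTCACTGAacaatgaatgcaac
hsa-mir-181c-3p: aCCATCGAccgttgagtggacc
hsa-mir-181d-3p: cCCACCGGgggatgaatgtca

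All 4 human 5p products carried 1 seed and had their first 8 bases in common. From the first base on, the products of mir-181a-1 and mir-181c had 10 bases in common and those of mir-181b-1 and mir-181d had 11. The 5p product of mir-181a-1 was listed at 17 nt, shorter than the 21 nt of mir-181b-1 and the 24 nt of mir-181c and mir-181d, so that the comparison of the 3′ ends is limited. The 3p products carried 3 seeds. Of these, 1 was shared by mir-181a-1 and mir-181c, whose 3p products had their first 15 bases in common, while the 3p products of mir-181b-1 and mir-181d differed in their seeds from these and from each other. By seed and first bases, a and c of the human list thus resembled each other on both arms, and b and d on the 5p arm. Bases further along were not compared, so a likeness of the b and d 3p products there is not excluded.

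Each of the 12 hairpins lay within 10 kb of exactly 1 other hairpin, its partner, and the 12 formed 3 pairs in each species. Among all loci, 29.0% of the bovine and 33.3% of the feline ones lay in a cluster at this distance (95% exact binomial intervals 25.9 to 32.3% and 29.2 to 37.7%, for counting error only). The members were not independent of each other in this respect, since a partner is counted for both. In 6 of 6 pairs, the same 3 in each species, both hairpins were on the same strand. The a or c hairpin was the upstream one, followed by b or d. The share of neighbours on the same strand over all loci is not given here.

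The first pair, mir-181a-1 and mir-181b-1, lay on bovine chromosome 16, minus strand. No source used here names the genome build, and the positions are those of the deposited sets. The bovine mir-181a-1 precursor took up bases 79685953 to 79686020 and mir-181b-1 bases 79685771 to 79685836. In the cat the same pair lay on the minus strand of sequence NC_018739.2, with mir-181a-1 at 38302748 to 38302814 and mir-181b-1 at 38302564 to 38302627. In a RefSeq gene table of the cow, made for another assembly (ARS-UCD2.0) and used here for names and order only, MIR181A-1 and MIR181B-1 lay inside no other gene. The nearest protein-coding gene in that table was PTPRC, which encodes the leukocyte phosphatase CD45. Its distance from the pair is not given here, and no link between them was tested.

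The second pair, mir-181a-2 and mir-181b-2, lay on bovine chromosome 11, plus strand, at 95709449 to 95709509 and 95710641 to 95710700. The feline pair lay on the plus strand of NC_018735.2, at 83694854 to 83694918 and 83696104 to 83696165. In the RefSeq table the bovine genes of this pair lay within the span of NR6A1, which encodes an orphan nuclear receptor, and of a long non-coding RNA gene, LOC100848407. This rests on position alone, as the strands of the genes were not compared.

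The third pair, mir-181c and mir-181d, lay on bovine chromosome 7, plus strand, at 12915090 to 12915151 and 12915271 to 12915334. The feline pair lay on the plus strand of NC_018724.2, at 9859662 to 9859723 and 9859843 to 9859909. In the RefSeq table MIR181C and MIR181D lay within the span of NANOS3, a gene for an RNA-binding protein of germ cells, again by position without regard to strand. All 6 bovine names matched a gene of the table through the synonyms listed for it.

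The distance between the partners differed far more between mir-181a-2 and mir-181b-2 and the other pairs than between the species. It is given as the spacing, the distance from the first base of the upstream 5p product to the first base of the downstream 5p product, which does not depend on where a precursor was taken to end. The spacing of mir-181c and mir-181d was 182 nt in the cow and 182 nt in the cat. For mir-181a-1 and mir-181b-1 it was 184 nt in the cow and 186 nt in the cat. These pairs were thus spaced almost alike, within 4 nt of each other in either species. The third, mir-181a-2 and mir-181b-2, stood apart with 1192 nt in the cow and 1249 nt in the cat, the cat being wider by 57 nt or 4.78% of the bovine spacing.

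**Figure D1:**
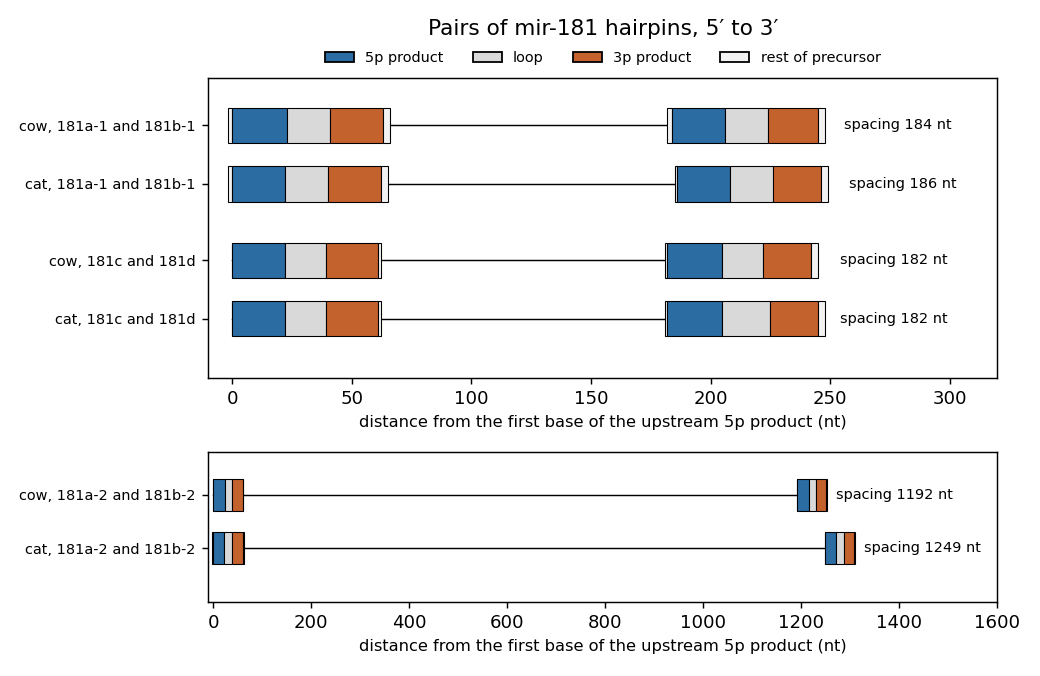
Each row draws 1 pair of mir-181 precursors to scale in 1 species, 5′ to 3′, with the distance in nt from the first base of the upstream 5p product on the horizontal axis, and boxes for the 5p product, the loop, the 3p product and the rest of the precursor. The c and d pair is spaced 182 nt apart in both species and the a-1 and b-1 pair 184 nt in the cow and 186 nt in the cat, while the a-2 and b-2 pair, drawn on its own axis, is spaced 1192 and 1249 nt apart.

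Measured as the gap between the 2 precursors, the distances were 116 nt in the cow and 120 nt in the cat for mir-181a-1 and mir-181b-1, and 119 nt in both species for mir-181c and mir-181d. For mir-181a-2 and mir-181b-2 the gap was 1131 nt in the cow and 1185 nt in the cat. The cat was therefore wider by 4, 0 and 54 nt. From the first to the last base, the short pairs covered 245 to 251 nt and the long pair 1252 nt in the cow and 1312 nt in the cat.

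These values were set beside the other pairs of neighbouring hairpins that bore the same 2 names on 1 strand in both sets, 25 in number, of which 24 had a 5p product in each hairpin. Their gaps had a median of 435 nt in the cow, from 50 to 5760 nt, and of 443 nt in the cat, from 51 to 5721 nt. A gap under 200 nt was found in 8 of the 25 in each species and in 2 of the 3 mir-181 pairs. Between the species, the spacing of the other pairs differed by a median of 14.0 nt in size, or 3.72% of the bovine spacing. None of the 24 had the same spacing in both species, 2 differed by at most 2 nt, and 19 differed by at most the 57 nt found for mir-181a-2 and mir-181b-2. Of these other pairs, the 8 with gaps under 200 nt differed in spacing by 2 to 20 nt in size. The pair mir-181c and mir-181d was the 1 pair of the 27 with an equal spacing. The pair mir-181a-2 and mir-181b-2 differed by more than the median pair, both in nt and in percent of the bovine spacing (4.78%). With 3 pairs and 1 list per species this order is a description.

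**Figure D2:**
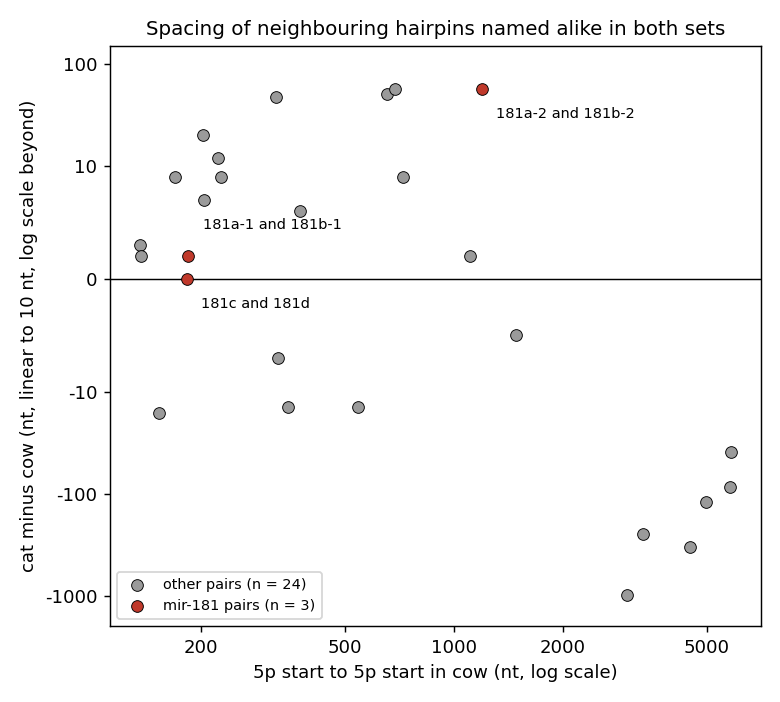
Each point is 1 pair of neighbouring hairpins with the same names on the same strand in both sets; the horizontal axis is the bovine spacing from 5p start to 5p start in nt (log scale), the vertical axis the feline minus the bovine spacing in nt (linear up to 10 nt and logarithmic beyond). The 3 mir-181 pairs lie at differences of 0, 2 and 57 nt, among 24 other pairs of which none lies at 0.

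Paralogous pairs of other families gave a frame for these distances. The mir-29 family, also encoded as pairs of related hairpins, had bovine gaps of 288 nt (mir-29b-1 and mir-29a) and 453 nt (mir-29b-2 and mir-29c), with 267 and 488 nt in the cat for the hairpins in the same places. The mir-30 family, another set of paralogous pairs, had wider gaps, 4373 nt in the cow and 4426 nt in the cat for the pair ending in mir-30b, and 3061 and 2956 nt for the pair ending in mir-30c. In the mir-23, mir-27 and mir-24 clusters, which join 3 unrelated families, gaps ran from 94 to 435 nt in the cow and from 77 to 443 nt in the cat. The short mir-181 pairs were within the range of the latter clusters, and their gaps differed between the species by 0 and 4 nt, less than those of the mir-29 pairs.

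All 12 mir-181 precursors had a product from each arm. This was the case for 72.5% of all bovine and 65.7% of all feline loci (intervals 69.3 to 75.5% and 61.3 to 69.8%). A product in these lists is a place where reads piled up, and its presence does not tell which arm was the more abundant.

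The 5p products were 22 or 23 nt long. In the cow, mir-181a-1, mir-181a-2, mir-181b-2 and mir-181d had 5p products of 23 nt, and mir-181b-1 and mir-181c of 22 nt. In the cat, 5 of the 6 were of 22 nt, and mir-181d alone was of 23 nt. The 5p length was equal between the species for 3 of the 6 names, and in the other 3 the feline product was 1 nt shorter. The 5p lengths of the a copies, and of the b copies, are not taken as independent. In mammals both copies give the same mature 5p sequence, and the study's method shared out reads that fitted several places equally well. How far this held at these loci was not examined, and bovine mir-181b-1 and mir-181b-2 differed, with 22 and 23 nt. Both lengths were common elsewhere, as 44.2% and 21.8% of all bovine and 47.8% and 20.7% of all feline 5p products had 22 and 23 nt.

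The 3p products fell into the same order in both species, with those of a and c at 22 nt and those of b and d shorter. In the cow, mir-181a-1, mir-181a-2 and mir-181c had 3p products of 22 nt, mir-181b-1 and mir-181b-2 of 21 nt and mir-181d of 20 nt. In the cat, the same 3 a and c hairpins had 22 nt, and all 3 b and d hairpins had 20 nt. Among the 3p products of all loci, 20 nt was the length of 7.34% in the cow and 6.93% in the cat, 21 nt of 25% and 28.9%, and 22 nt of 51.8% and 48.5%. The 21 nt of bovine mir-181b-1 and mir-181b-2 was thus a common length, and the 20 nt of the other shorter products a less common one. The 3p length was equal between the species for 4 of 6 names, and in the other 2, mir-181b-1 and mir-181b-2, the feline product was 1 nt shorter.

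In the other 133 names that had both arms in both species, the 5p length was equal in 78.9% and the 3p length in 76.7%. The mir-181 names stood at 3 of 6 and 4 of 6.

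**Figure D3:**
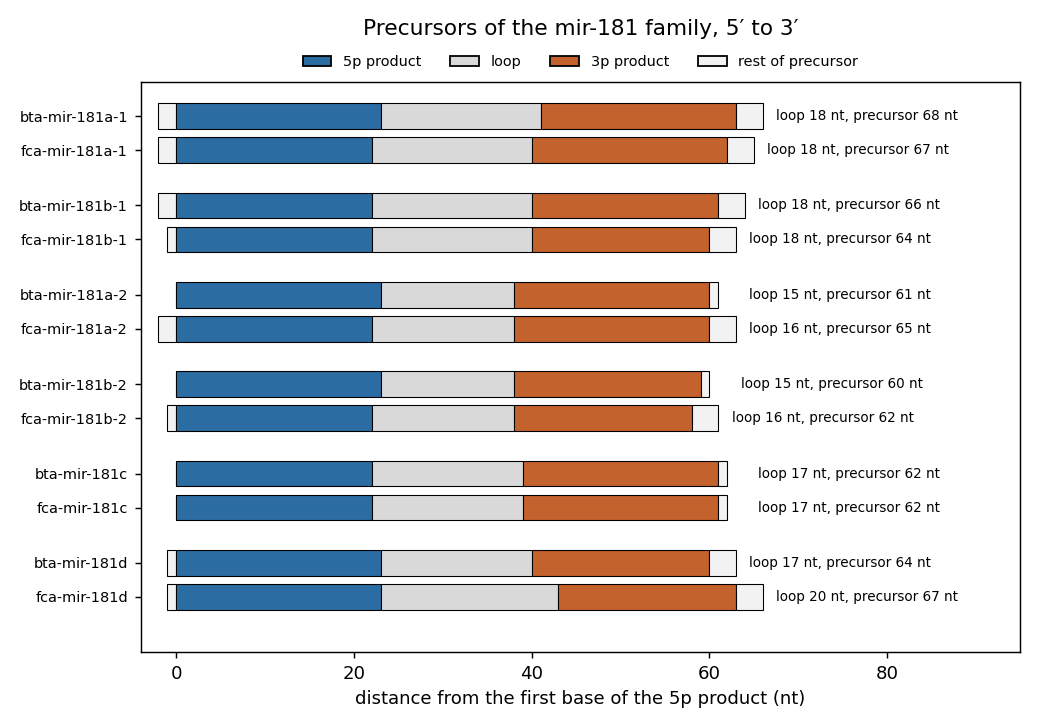
Each bar is 1 mir-181 precursor drawn to scale, 5′ to 3′, with the distance in nt from the first base of its 5p product on the horizontal axis; bta marks the cow and fca the cat, and the boxes are the 5p product, the loop, the 3p product and the rest of the precursor. The 2 bars of mir-181c coincide, and those of mir-181d differ by the loop, 17 nt in the cow and 20 nt in the cat.

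The loop was taken as the bases between the 5p and the 3p product. It was 18 nt in bovine mir-181a-1 and mir-181b-1, 15 nt in mir-181a-2 and mir-181b-2, and 17 nt in mir-181c and mir-181d. In the cat it was 18 nt in the first pair, 16 nt in the second, 17 nt in mir-181c and 20 nt in mir-181d. Partners thus had loops of equal length in 5 of 6 pairs, 3 of 3 in the cow and 2 of 3 in the cat. These are the same 3 pairs in either species, and the pair of feline mir-181c and mir-181d was the exception. Among the other pairs of neighbours on 1 strand, loops were equal in 11 of 114 in the cow, 9.65%, and in 6 of 65 in the cat, 9.23%. Among those that joined 2 hairpins of 1 family, they were equal in 5 of 16 in the cow and 3 of 11 in the cat, larger shares than over all neighbours, though not tested.

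The equality of partners rested in part on the 3′ end of the 5p product. The distance from the first base of the 5p product to the first base of the 3p product, which leaves that end out, was equal in 3 of 6 pairs. In the cow it was 41 nt in mir-181a-1 against 40 nt in mir-181b-1, 38 nt in both hairpins of the second pair, and 39 nt in mir-181c against 40 nt in mir-181d. In the cat it was 40 nt in both hairpins of the first pair and 38 nt in both of the second, but 39 nt in mir-181c and 43 nt in mir-181d. The mir-181 partners were thus equal by this distance in 1 of 3 pairs in the cow and 2 of 3 in the cat. Among the other pairs of neighbours on 1 strand, it was equal in 8 of 114 in the cow, 7.02%, and in 3 of 65 in the cat, 4.62%. Among those of 1 family, it was equal in 3 of 16 in the cow and 1 of 11 in the cat. These shares were not tested. This distance was chosen after the loop lengths had been seen.

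Between the species, the loop was equal in 3 of 6 names, mir-181a-1, mir-181b-1 and mir-181c. It was 1 nt longer in the cat in mir-181a-2 and mir-181b-2, and 3 nt longer in mir-181d. In the second pair this nucleotide was the one by which the feline 5p products were shorter, since the distance from 5p start to 3p start was 38 nt in both hairpins in both species. By that distance 4 of 6 names were equal in the species, mir-181a-1 differed by 1 nt and mir-181d by 3 nt. In the other 133 shared names, the loop was equal in 62.4% and the distance from 5p start to 3p start in 79.7%.

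The hairpin of mir-181d was the 1 member with a difference of more than 1 nt between the species inside the products. Its 5p product had 23 nt and its 3p product 20 nt in both, and the extra 3 nt of the cat lay between them. It took the span of the products, from the first base of 5p to the last base of 3p, from 60 nt in the cow to 63 nt in the cat. A loop that differed by 3 nt or more was found in 9 of the other 133 names, 6.77%, with differences from -4 to 4 nt. Its partner mir-181c was the member with no difference at all, with equal loop, products, span, precursor length and ends. In the other names the span was equal in 74.4%, against 2 of 6 mir-181 names, mir-181a-2 and mir-181c.

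Against all loci with both arms, the loops of the family were of middling length, within the quartiles, except for the longer feline mir-181d loop. The median was 17 nt in the cow and 17.5 nt in the cat for the 6 members and 16 nt over all loci of either species, with quartiles of 14 and 18 nt. The bovine loops of 15 nt had 169 shorter and 350 longer loops among 587 loci, and those of 18 nt had 391 shorter and 142 longer. The feline mir-181d loop of 20 nt had 260 shorter and 49 longer among 325, the highest place in the family.

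**Figure D4:**
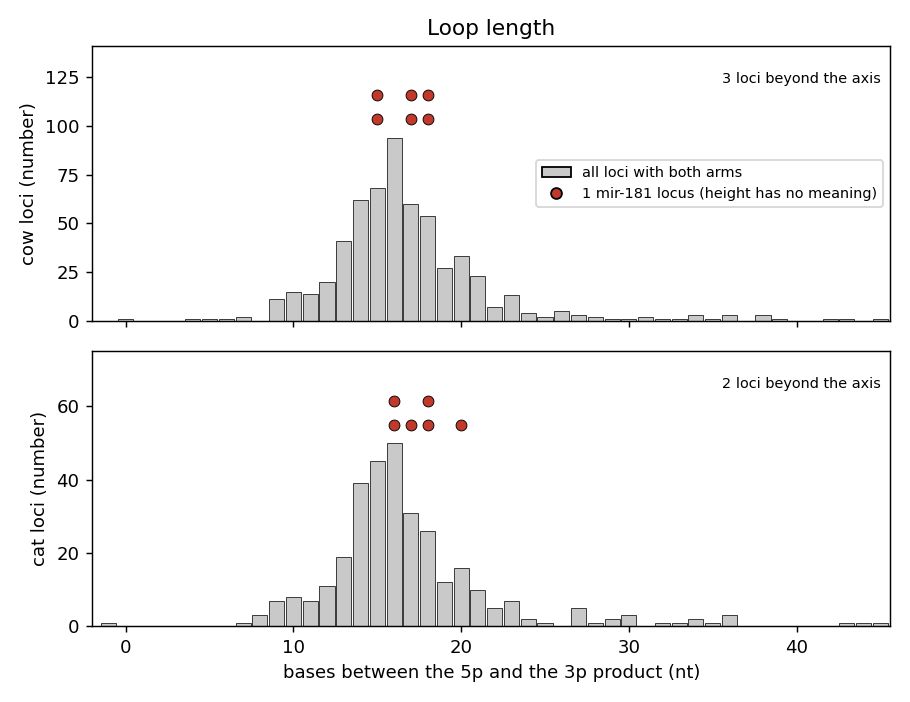
The bars give the number of loci with both arms at each loop length (bases between the 5p and the 3p product, in nt) in the cow (upper panel) and the cat (lower panel), and each point marks 1 mir-181 locus, its height having no meaning. The members lie at 15 to 18 nt in the cow and 16 to 20 nt in the cat, around and above the median of 16 nt.

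The precursors were 60 to 68 nt long in the cow and 62 to 67 nt in the cat. Their medians were 63 and 64.5 nt, against 66 and 65 nt over all loci, with quartiles of 62 and 71 nt in the cow and 62 and 70 nt in the cat. Only mir-181c had the same length, 62 nt, in both species, whereas mir-181a-2 was 4 nt longer in the cat and mir-181b-1 2 nt shorter. In the other 133 names with both arms in both species, the precursor length was equal in 57, or 42.9%. In the RefSeq table the bovine hairpins of this family were 89 to 113 nt long, and each deposited precursor was shorter than the annotated hairpin of its name. Other bovine loci were not compared with that table, so this is not a trait particular to the family.

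The precursor lengths followed where the deposited precursor was made to end beside the products. In bovine mir-181a-2, mir-181b-2 and mir-181c, and in feline mir-181c, the precursor began at the first base of the 5p product and ended 1 base after the 3p product. In the other 8 members 1 or 2 bases preceded the 5p product and 3 bases followed the 3p product. A start at the first base of the 5p product was found in 23.5% of all bovine and 27.4% of all feline loci with both arms. The 4 members were also those whose identifier ended in the letter b, which 11.5% of bovine and 14.1% of feline loci had. Over all loci with both arms, ends of 0 and 1 bases were found in 89 of 91 bovine loci (97.8%) and 65 of 65 feline loci (100%) with this letter, and in 0 of 481 and 0 of 256 with the letter a. What the letter stands for is stated in no source used here. The precursor length and the gap between precursors of these members thus carry a difference in where the precursor was ended, while the spacing and the loop do not.

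Outside the pairs, the nearest hairpins lay at distances from kb to Mb. The pair of mir-181a-1 and mir-181b-1 stood alone over more than 2 Mb in both species. Upstream of it in the cow, at 2.01 Mb, was bta-Novel171, a locus without a family name. Downstream, on the opposite strand, were loci of the mir-29 family, bta-mir-29e at 2.12 Mb in the cow and fca-mir-29-Novel2 at 2.73 Mb in the cat. The same side held mir-29b-2, at 2.21 Mb in the cow and 2.79 Mb in the cat. The pair of mir-181a-2 and mir-181b-2 had mir-199b as its nearest hairpin in both species, downstream on the opposite strand, at 3.16 Mb in the cow and 3.13 Mb in the cat, with a mir-219 locus at 3.29 and 3.26 Mb. For both pairs, then, the families met next on the downstream side were the same in cow and cat.

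The surroundings of mir-181c and mir-181d differed between the sets. In both species the nearest hairpins were the 3 of the mir-23a, mir-27a and mir-24-2 cluster, whose products are known from muscle, blood and endothelial cells, and the cluster lay on the opposite strand. In the cow it lay downstream of mir-181d, with mir-24-2 nearest at 66.3 kb and the 3′ ends of both transcripts facing each other. In the cat it lay upstream of mir-181c, at 27.2 kb, with the mir-23 hairpin of the cluster nearest and the 5′ ends facing each other. In the RefSeq table of the other bovine assembly the order on chromosome 7 was MIR181D, MIR181C, MIR23A, MIR27A, MIR24-2, which placed MIR181C next to MIR23A, as in the feline set and unlike the deposited bovine set. Whether the assembly accounts for this was not tested. Within the pair no such difference was seen, the spacing of 182 nt and the order of c before d being shared by the 2 deposited sets.

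**Figure D5:**
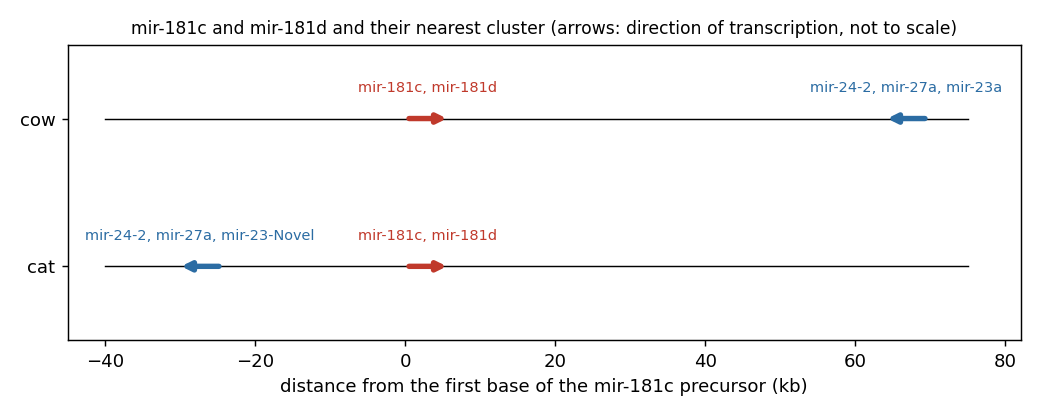
The horizontal axis is the distance in kb from the first base of the mir-181c precursor in its direction of transcription, and the arrows give the direction of transcription of the mir-181c and mir-181d pair and of the nearest cluster (arrow length is not to scale). The cluster lies 66.3 kb downstream of the pair in the cow and 27.2 kb upstream in the cat, with its arrow opposite in both.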

How the data were processed

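Small RNA libraries of 10 bovine and 4 feline samples were sequenced. Per the labels and the study's methods, the authors trimmed adaptors with cutadapt 1.15, aligned reads with Bowtie, left out reads with more than 10 positions, kept the best positions, shared a read in equal parts among them, and called precursors and products with the random forests of miRWoods, pooling the libraries of each species. The deposited values are the first and last base, strand and name of each feature, in genome positions that begin at 1. The lists hold no score, count or level, so they give no depth, test or replicate error. The read counts of mature microRNAs that the study tabulated outside the deposited lists were not used here. No source used here names the genome build.

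Positions were read with Python 3.11.15. Gaps, spacings, loops, lengths and ends were computed along the strand. Clusters joined precursors at most 10 kb apart on either strand, the distance of the study's methods. Exact (Clopper-Pearson) binomial intervals came from scipy 1.17.1 and cover counting error only. The code recovered the geometry of simulated lists. Members, comparison families (mir-29, mir-30, mir-23, mir-27 and mir-24) and the naming rule (every member, the nearest neighbours outside a pair, and these families) were chosen with earlier results of these data known. Human sequences came from the study's list of products, and bovine gene names and order from a RefSeq table of ARS-UCD2.0. Alternatives were the cluster distance, strand, ways of measuring distance, loop and length, and antisense names.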

Additional observations from a re-analysis of the deposited data

How the results depend on the processing

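No paired analysis was possible because the deposited lists, from which every result comes, hold no value per library and no result comes from a test; for the same reason no library could be left out. The study's table of read counts was not used here. The 6 loci per species were also found with antisense names counted, and all 6 were in clusters at 5 kb, at 50 kb and with neighbours on the same strand only, while at 1 kb 4 of 6 were in clusters in each species, as mir-181a-2 and mir-181b-2 then stood alone. In the order mir-181a-1 and mir-181b-1, mir-181a-2 and mir-181b-2, mir-181c and mir-181d, the gap became 184, 1192 and 181 nt in the cow and 187, 1250 and 181 nt in the cat when measured from precursor start to precursor start, 121, 1132 and 121 nt against 124, 1189 and 121 nt from the end of the 3p to the start of the 5p product, and 184, 1192 and 182 nt against 186, 1249 and 182 nt from 5p start to 5p start. The cat was the wider or equal one in each of these. The median loop became 16.5 nt in both species when every product was set to 22 nt, and the median precursor length became 60.5 nt in both when taken as the span of the products. By the distance from 5p start to 3p start, chosen after seeing the data, equal partners fell to 3 of 6 pairs and equal names came to 4 of 6.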

Other observations

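The ends of the products give a further view of the pairs. From the last base of the upstream 3p product to the first base of the downstream 5p product, the stretch between the products was 121 nt in 3 of the 4 short pairs, namely bovine mir-181a-1 and mir-181b-1 and mir-181c and mir-181d of both species, and 124 nt in feline mir-181a-1 and mir-181b-1. The same stretch was 1132 nt in bovine and 1189 nt in feline mir-181a-2 and mir-181b-2.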
